A study of Mus musculus with 8 samples.

Results

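Untreated peritoneal macrophages (PM) were compared with untreated bone marrow-derived macrophages (BMDM) by RNA sequencing, in the 4 libraries of the 8 in the series that received no cytokine. PM were collected from the peritoneal cavity of C57BL/6 mice 3 to 4 days after 1 ml of 4% thioglycollate, and BMDM were grown from marrow for 5 days in 10% M-CSF. Each cell type had 1 library from wild-type mice (WT) and 1 from Slc6a8-/y mice (KO, for knockout), which lack the X-linked creatine transporter gene. The other 4 libraries were PM given IFN-gamma (10 ng/mL, 12 hours) and BMDM given IL-4 (10 ng/mL, 6 hours) in the same genotypes. The comparison therefore set 2 PM libraries (WT, KO) against 2 BMDM libraries (WT, KO), with genotype as a block. The labels do not say whether libraries of a genotype came from the same animals.

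Thioglycollate is a sterile irritant that draws monocytes into the peritoneal cavity, where they become macrophages that take up debris and the irritant itself. BMDM arise in a dish from marrow progenitors under macrophage colony-stimulating factor, which binds the receptor encoded by Csf1r and drives both differentiation and division. Both are widely used laboratory models of the macrophage, a phagocyte whose gene expression is known to depend strongly on its tissue, its growth factors and its load of ingested material.

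Cell type and batch cannot be told apart in these data. The tables of the PM libraries summed to 10812678 and 10940358 expected counts (WT and KO), and those of the BMDM libraries to 21148299 and 21163660. They listed 15019 and 15141 genes in PM and 16004 and 15895 in BMDM, and a gene near 1 FPKM (fragments per kilobase of transcript, scaled to library size) had a median of 29.0 counts in either PM library against 53.1 and 54.0 in BMDM. Of 15948 genes listed in at least 1 table of each cell type, 56 had different transcript identifiers in the PM and the BMDM tables, while none differed within a cell type. The ribosomal RNA gene Rn18s was at 0 in both PM libraries and at 66.8 and 75 FPKM in WT and KO BMDM. In bulk RNA, fewer cells of a type and less RNA per cell cannot be told apart.

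Genes were called at an adjusted p under 0.05 in edgeR's quasi-likelihood test with Benjamini-Hochberg adjustment over the 12911 genes tested. The log2 changes below are PM over BMDM from that fit, and the 2 values of a cell type are those of the WT and then the KO library. The fit left 1 residual degree of freedom, and its p-values measure only the spread between these libraries, which may be technical. The median log2 change of all genes tested was -0.01, whereas the log2 ratio of FPKM + 1 had a median of -0.19 in the WT pair and -0.13 in the KO pair, so small differences in FPKM can point the other way from the fit.

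The deleted gene checked the genotype labels. Slc6a8 (chromosome X, 73673133 to 73682502 on GRCm38, RefSeq) stood at 0.73 FPKM in KO PM against 163.5 FPKM in WT PM, and at 1.71 FPKM in KO BMDM against 97.3 FPKM in WT BMDM. The PM library was the higher one in WT cells and the lower one in KO cells, and the cell type term was not called (log2 change 0.47, SE 0.27, adjusted p = 0.153). Without the WT BMDM library, in a fit with no genotype term, the log2 change of Slc6a8 was 5.80. That fit set WT and KO PM against KO BMDM alone, so its value mixes the deletion with cell type.

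The 2 macrophage types differed widely. Of the 12911 genes tested, 3556 were higher in PM (27.5%) and 3546 lower (27.5%), 7102 in all (55.0%). On log2(FPKM + 1) values with limma, over the 10994 genes averaging 1 FPKM or more, 2051 were higher (18.7%) and 4335 lower (39.4%), and a test against a 2-fold change in edgeR called 1032 higher (7.99%) and 1200 lower (9.29%). The PM to BMDM ratio had the same sign in the WT and the KO pair for 6974 of the 7102 genes called, a description only, since the fit used both pairs. Many of the differences were small: 3797 of the genes called had an absolute log2 change under 1, and the median over all called was 0.93. A stricter set, called and at least 2-fold in the same direction in both pairs on FPKM + 1, held 573 genes higher in PM (4.44% of those tested) and 1110 lower (8.6%). Centring each pair's ratios on its median moved these counts to 739 and 862. Of the 573 higher genes 485 were protein-coding and 76 long noncoding RNAs, and of the 1110 lower genes 1068 were protein-coding and 18 long noncoding RNAs. At 4-fold in both pairs, 172 genes were higher (1.33%) and 283 lower (2.19%). Across the 12911 genes, the WT pair's ratios and the KO pair's had a Pearson correlation of 0.943; genes are not independent replicates, and both pairs share the batch. KO and WT libraries of 1 cell type differed by 2-fold in few genes: 22 were higher and 21 lower in KO than in WT PM, and 5 higher and 10 lower in KO than in WT BMDM.

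**Figure D1:**
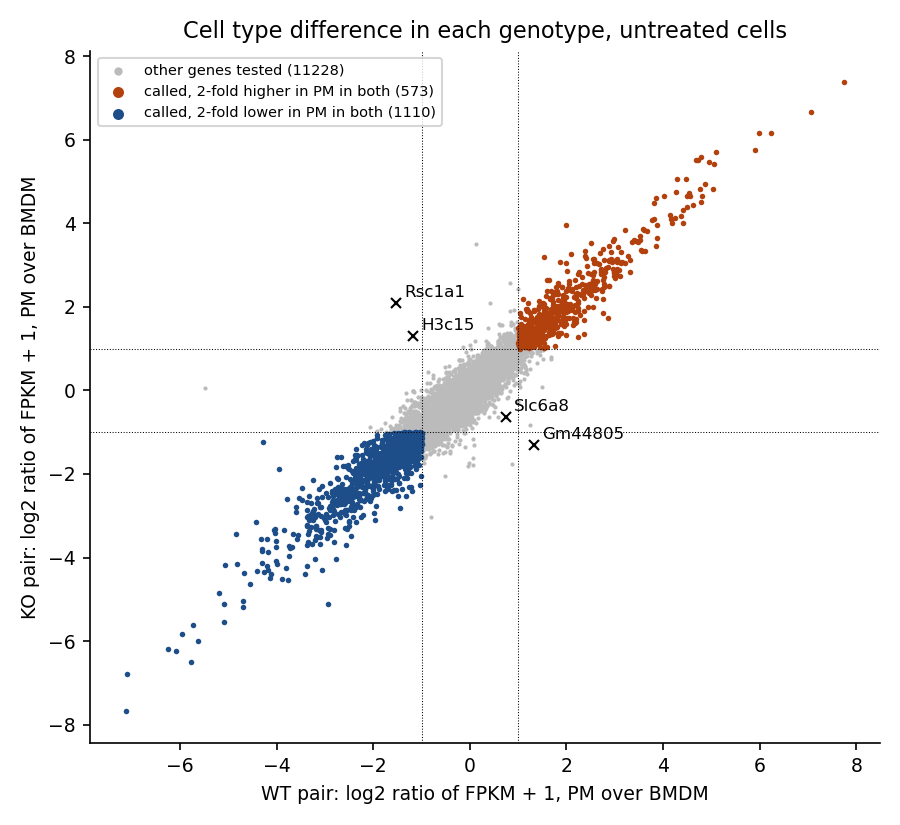
Each point is 1 of the 12911 genes tested, with the PM over BMDM log2 ratio of FPKM + 1 in the WT pair on the horizontal axis and in the KO pair on the vertical axis; dotted lines mark 2-fold. The 573 genes called and 2-fold higher in both pairs (orange) and the 1110 lower (blue) lie along the diagonal, and 3 genes at least 2-fold in opposite directions are marked with crosses, as is Slc6a8.

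Among the largest differences were genes of matrix breakdown and coagulation. The genes given first, up to 15 of each direction, had the largest ratios of FPKM + 1 among protein-coding genes called, 2-fold in both genotypes and at 10 FPKM or more in both libraries of the higher cell type. This choice makes overlap between the libraries of the 2 cell types unlikely, so its absence in such genes is a description only. Slamf8 (chromosome 1, 172581377 to 172590873), a member of the SLAM family of immune cell surface receptors, stood at 129.6 and 149 FPKM in WT and KO PM, against 1.06 and 1.1 FPKM in BMDM. Both PM libraries were far above both BMDM libraries, with no overlap (log2 change 7.21, SE 0.16, adjusted p = 6.03e-13). Mmp12 (chromosome 9, 7344397 to 7360461), the macrophage elastase, stood at 1039 and 1688 FPKM in WT and KO PM, against 39.8 and 36.2 FPKM in BMDM (log2 change 5.33, SE 0.21, adjusted p = 4.4e-11), and the KO library was the highest of the 4. Ctsk (chromosome 3, 95499210 to 95509387), the collagen-degrading cathepsin best known from osteoclasts, stood at 276 (WT) and 373 FPKM (KO) in PM, against 7.94 (WT) and 7.42 FPKM (KO) in BMDM (log2 change 5.58, SE 0.16, adjusted p = 2.61e-12). Itgax (chromosome 7, 128129526 to 128150657), which encodes the integrin CD11c, stood at 227 and 305 FPKM in WT and KO PM, against 7.23 and 5.36 FPKM in BMDM (log2 change 5.60, SE 0.19, adjusted p = 1.64e-11).

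F7 (chromosome 8, 13025506 to 13035809) and F10 (chromosome 8, 13037308 to 13056676) are neighbours that encode coagulation factors VII and X, and both were among the 15 largest. F7 stood at 77.8 and 76.8 FPKM in WT and KO PM, against 1.39 and 1.77 FPKM in BMDM (log2 change 5.81, SE 0.15, adjusted p = 1.97e-12). F10 stood at 57.8 (WT) and 76.3 FPKM (KO) in PM, against 1 (WT) and 1.54 FPKM (KO) in BMDM (log2 change 5.92, SE 0.15, adjusted p = 1.27e-12). As the choice of these genes makes likely, in neither did a PM library overlap a BMDM library. The remaining genes of this group of 15 include Cd200, a ligand that restrains myeloid cells through its receptor, at 98.4 and 118 FPKM in WT and KO PM, against 1.92 and 1.28 FPKM in BMDM (log2 change 6.28, SE 0.18, adjusted p = 2.61e-12). Saa3, an acute phase protein that macrophages make, stood at 206 and 175 FPKM in WT and KO PM, against 5.27 and 3.1 FPKM in BMDM (log2 change 5.72, SE 0.16, adjusted p = 2.61e-12). Wfs1, a protein of the endoplasmic reticulum, stood at 130.3 and 130.5 FPKM in WT and KO PM, against 3.83 and 3.68 FPKM in BMDM (log2 change 5.32, SE 0.14, adjusted p = 1.65e-12). Rgl1, which encodes an exchange factor of the Ral pathway, had a log2 change of 5.56 (SE 0.19), Tm4sf19 of 5.25 (SE 0.15) and Mamdc2 of 5.12 (SE 0.15). Scgb1a1, a secretoglobin best known from club cells of the airway, stood at 58.6 and 69.8 FPKM in WT and KO PM, against 0 and 0.32 FPKM in BMDM; on 613 counts in PM against 3 in BMDM the ratio was 397-fold (95% counting interval 135 to 1930).

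Hba-a1 and Gm5148 complete the 15 and need care. Hba-a1, which encodes alpha globin and has near-identical copies, stood at 25.3 and 32.5 FPKM in WT and KO PM, against 0.35 and 0 FPKM in BMDM, and the beta globin genes Hbb-bs and Hbb-bt were at 0 in both BMDM libraries. Listed erythroid and progenitor markers summed to 52.1 and 78 FPKM in WT and KO PM, against 3.82 and 3.32 FPKM in BMDM, while the erythroid regulators Klf1 and Gata1 were at 0.16 FPKM or less in all 4. The part of red cell RNA in the globin values was not tested. Gm5148 stood at 132 and 101 FPKM in WT and KO PM and at 0 in all 4 BMDM tables of the series. Whether the annotation behind the BMDM tables held it was not tested, and no fold is given. It was 1 of 15 genes with at least 2 FPKM in every PM table and 0 in every BMDM table, and 7 genes showed the reverse. Hba-a2, Hbb-bs and Hbb-bt were also among the 15, with the same limit.

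Genes lower in PM were led by a secreted matrix protein and by receptors of the macrophage surface. Tgfbi (chromosome 13, 56609586 to 56639359), a matrix protein induced by TGF-beta, stood at 1 and 0.48 FPKM in WT and KO PM, against 276 and 303 FPKM in BMDM (log2 change -8.41, SE 0.23, adjusted p = 2.24e-12). The BMDM libraries were both high and the PM libraries both near 1 FPKM or below. Fcrls, an Fc receptor-like protein known from microglia and tissue macrophages, stood at 0.19 and 0.14 FPKM in WT and KO PM, against 161 and 125 FPKM in BMDM (log2 change -9.55, SE 0.22, adjusted p = 7.11e-13). Cx3cr1 (chromosome 9, 120048683 to 120068296), the fractalkine receptor of monocytes and macrophages, stood at 0.54 and 0.25 FPKM in WT and KO PM, against 75 and 78.3 FPKM in BMDM (log2 change -7.41, SE 0.21, adjusted p = 2.61e-12). Folr2, a folate receptor, stood at 14 and 10.2 FPKM in WT and KO PM, against 509.9 and 389 FPKM in BMDM (log2 change -5.01, SE 0.14, adjusted p = 2.61e-12). Stab1, a scavenger receptor also called stabilin 1, stood at 6.51 (WT) and 4.03 FPKM (KO) in PM, against 193 (WT) and 182 FPKM (KO) in BMDM (log2 change -4.98, SE 0.18, adjusted p = 2.31e-11). In each of these genes the lowest BMDM library was above the highest PM library, as their choice makes likely. Without the WT PM library the log2 change was -9.06 for Tgfbi and -8.12 for Cx3cr1.

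The other large differences in this direction fell in several classes. Lox, the enzyme that crosslinks collagen and elastin, stood at 0.82 and 0.71 FPKM in WT and KO PM, against 50.1 and 29.3 FPKM in BMDM (log2 change -5.57, SE 0.16, adjusted p = 2.98e-12). Oas2, Rtp4 and Ifi27l2a, all interferon-induced, had log2 changes of -5.91, -4.90 and -4.47 (SE 0.17, 0.17 and 0.16). Fgd2, an exchange factor for the GTPase Cdc42, stood at 0.14 and 0 FPKM in WT and KO PM, against 19 and 21.6 FPKM in BMDM (log2 change -7.93, SE 0.34, adjusted p = 1.1e-10). Its PM value rests on 4 counts in the WT and 0 in the KO library, and the change was -6.91 without the KO PM library and -12.86 without the WT PM library, which leaves no count in PM. Ly6a (-7.26, SE 0.24), Ctla2b (-6.49, SE 0.24) and the histone gene H2ac24 (-5.95, SE 0.27) belong to families of close copies, and reads may be shared among them. Ly6a had 2 and 6 counts in WT and KO PM, and its change was -8.18 without the KO PM library and -6.70 without the WT PM library. Evi2b was at 0 in both PM libraries and at 75.5 and 72.3 FPKM in WT and KO BMDM. Scaled to total counts alone, it was at least 1900-fold lower with 3 counts as the floor over both PM libraries. The bound would be smaller with the scaling of the fit. It overlaps Evi2 and Evi2a, and Evi2 was higher in PM at 17.9 and 18.1 FPKM (WT and KO) against 5.7 and 5.25 FPKM in BMDM (WT and KO), so how these reads were shared is uncertain.

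**Figure D2:**
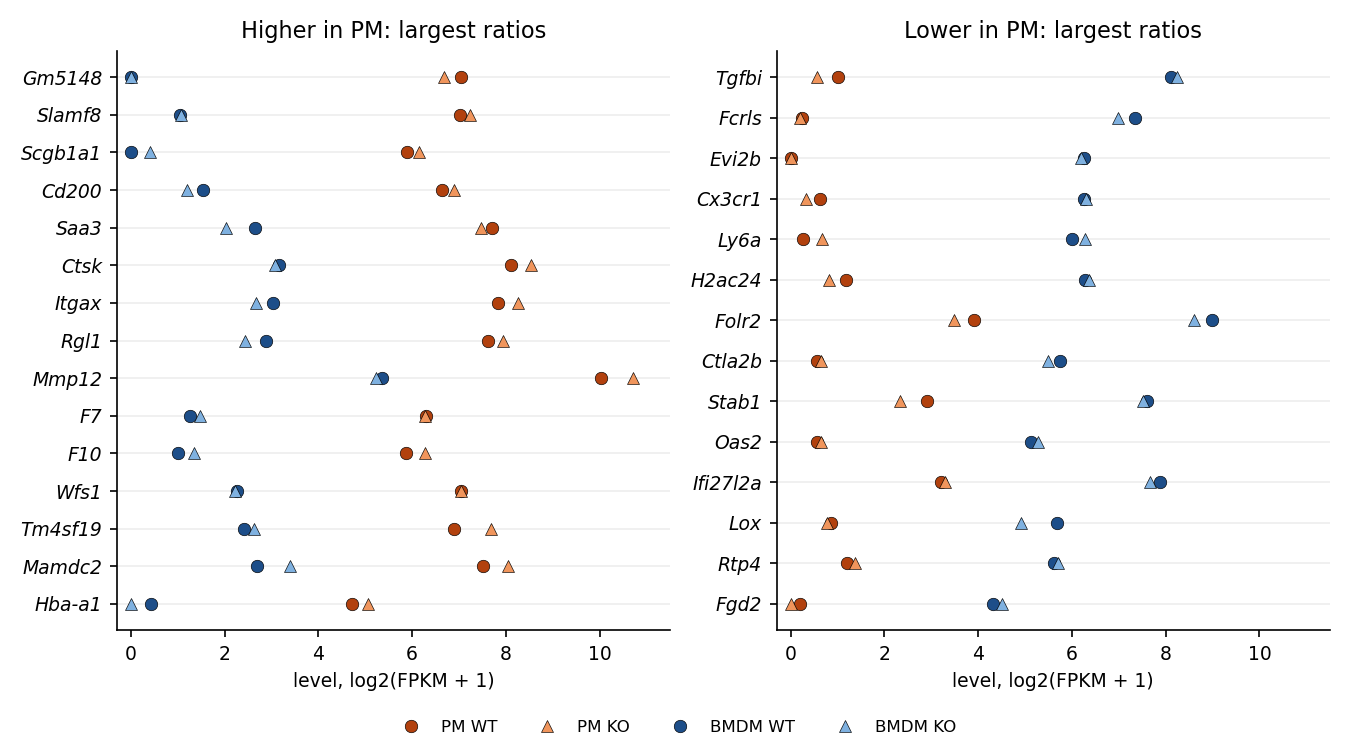
Genes with the largest PM over BMDM ratios, 15 higher and 14 lower in PM, as log2(FPKM + 1) in each library on the horizontal axis (orange: PM, blue: BMDM; circles: WT, triangles: KO). In every row the 2 libraries of a cell type lie closer to each other than to those of the other cell type. The choice of genes at least 2-fold in both genotypes makes this likely. Mmp12 reached 1688 FPKM in KO PM and Folr2 509.9 FPKM in WT BMDM.

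Abundant genes also differed. Fth1, the ferritin heavy chain, was the most abundant gene of both cell types, at 20393 and 15952 FPKM in WT and KO PM, against 15342 and 16282 FPKM in BMDM, and was not called (adjusted p = 0.0731). Of the genes at least 4-fold higher in PM, Anpep (aminopeptidase N, CD13) had the highest level, at 1604 and 1728 FPKM in WT and KO PM, against 264 and 328 FPKM in BMDM (log2 change 2.70, SE 0.15, adjusted p = 2.41e-09). Mfge8, the milk fat globule protein that bridges phagocytes to dying cells, stood at 1376 and 1405 FPKM in WT and KO PM, against 129 and 115 FPKM in BMDM (log2 change 3.72, SE 0.15, adjusted p = 5.82e-11). Gstm1, a glutathione transferase, stood at 535 and 559.9 FPKM in WT and KO PM, against 104 and 120.1 FPKM in BMDM (log2 change 2.50, SE 0.13, adjusted p = 7.26e-10). Rhoc, a small GTPase of cell movement, stood at 471 and 402 FPKM in WT and KO PM, against 56 and 52.7 FPKM in BMDM (log2 change 3.20, SE 0.13, adjusted p = 5.38e-11). Neither cell type's libraries overlapped the other's in these 4 genes, as their choice at 4-fold in both genotypes makes likely.

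In the other direction the C1q genes stood out. C1qa, C1qb and C1qc, adjacent on chromosome 4, encode the 3 chains of the complement recognition protein C1q, which macrophages make. C1qb stood at 273 and 104 FPKM in WT and KO PM, against 1881 and 1721 FPKM in BMDM (log2 change -3.20, SE 0.24, adjusted p = 3.78e-08). C1qc stood at 207 (WT) and 77.5 FPKM (KO) in PM, against 1722 (WT) and 1535 FPKM (KO) in BMDM (log2 change -3.47, SE 0.24, adjusted p = 1.62e-08). C1qa stood at 68.3 (WT) and 29.1 FPKM (KO) in PM, against 945 (WT) and 703 FPKM (KO) in BMDM (log2 change -3.97, SE 0.19, adjusted p = 2.74e-10). All 3 were lower in both PM libraries than in either BMDM library, as their choice at 4-fold in both genotypes makes likely. Within PM all 3 were lower in the KO library than in the WT library. Without the KO PM library the log2 changes were -3.35 for C1qa, -2.48 for C1qb and -2.74 for C1qc, and without the WT PM library -4.64, -3.93 and -4.21. Csf1r (chromosome 18, 61105572 to 61131139), the receptor for M-CSF, stood at 110.4 and 117 FPKM in WT and KO PM, against 1019 and 1109 FPKM in BMDM (log2 change -3.03, SE 0.15, adjusted p = 4.01e-10). Pltp, a phospholipid transfer protein, had a log2 change of -2.74 (SE 0.18), the selenium transport protein gene Selenop of -2.24 (SE 0.14), the calcium-binding protein gene S100a4 of -2.40 (SE 0.12) and Ly6e of -3.02 (SE 0.14).

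Genes of cell division were lower in PM as a block. BMDM divide under M-CSF, and elicited PM are known to divide little. Counts of list members here and below are of those tested, where 27.5% of all genes tested were called higher and 27.5% lower. Of the 1231 entries of 59 gene lists 1061 passed the filter on low counts, some only through the cell type where they are high. Counts with limma leave out members that average under 1 FPKM, so a smaller count need not be a lost call. All 36 tested members of the list of G2 and M phase genes were lower in PM, 35 of them at least 2-fold in both genotypes, with a median log2 change of -3.15 against -0.01 over all genes tested. Their summed level was 75.3 and 80.5 FPKM in WT and KO PM, against 839.6 and 786 FPKM in BMDM. Mki67, the proliferation marker Ki-67, stood at 1.68 and 2.28 FPKM in WT and KO PM, against 52 and 46.4 FPKM in BMDM (log2 change -4.44, SE 0.16, adjusted p = 1.83e-11). Ccnb2, a mitotic cyclin, stood at 1.33 and 2.09 FPKM in WT and KO PM, against 36.9 and 40.6 FPKM in BMDM (log2 change -4.30, SE 0.18, adjusted p = 7.17e-11). Top2a, the topoisomerase that untangles sister chromatids, stood at 2.28 and 2.74 FPKM in WT and KO PM, against 46.1 and 36.9 FPKM in BMDM (log2 change -3.83, SE 0.15, adjusted p = 3.75e-11). Cdk1, the mitotic kinase, stood at 1.67 and 1.31 FPKM in WT and KO PM, against 15.5 and 13.2 FPKM in BMDM (log2 change -3.07, SE 0.17, adjusted p = 1.23e-09). The smallest difference was that of Mybl2, at -1.50 (SE 0.27).

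The S phase list moved less, with 22 of 36 members lower, 3 higher and 11 not called, and a median of -0.63. Tk1 (thymidine kinase; log2 change -3.49, SE 0.20), Rrm2 (ribonucleotide reductase; -3.10, SE 0.17) and Mcm10 (replication origin firing; -3.09, SE 0.23) were lower. Pcna, the sliding clamp of DNA polymerase, stood at 161 and 147 FPKM in WT and KO PM, against 178 and 171 FPKM in BMDM and was not called (adjusted p = 0.872). Tyms, thymidylate synthase, was higher in PM (log2 change 1.19, SE 0.15, adjusted p = 1.01e-05). Of 16 cell cycle inhibitors and D cyclins, 2 were higher and 8 lower. Cdkn1c, which encodes the inhibitor p57, stood at 116 and 162 FPKM in WT and KO PM, against 5.13 and 8.35 FPKM in BMDM (log2 change 4.58, SE 0.13, adjusted p = 3.14e-12). The inhibitor genes Cdkn2c (-2.77, SE 0.14) and Cdkn1a (-1.46, SE 0.12) and the cyclin genes Ccnd1 (-2.67, SE 0.13) and Ccnd2 (-3.25, SE 0.23) were lower.

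The promoters of this list are shown because many of its members carry a common short motif. RefSeq promoter windows (GRCm38.p6, 250 bases before to 50 after each gene's start) were matched for 30 of the 36 G2 and M phase genes, and both strands were searched. The CHR motif, TTTGAA, which is bound by the DREAM and MuvB complexes that time mitotic genes, was in 22 of the 30 windows (73.3%) and in 20.2% of the windows of all 27025 genes. CCAAT was in 23 (76.7%), against 41.1% of all. For the S phase list the E2F motif TTGGCGC was in 8 of 28 windows (28.6%), against 2.85% of all. The other motifs of the 12 searched in 5 lists were the E2F site TTTCCCGC, the interferon-stimulated response element (GAAA repeated after 2 free bases), the STAT site TTCNNNGAA, the AP-1 site TGACTCA, the PU.1 site GAGGAAGT, the DR1 element (AGGTCA repeated after 1 free base), the MAF recognition element (which contains the AP-1 site), and TCACGTGA and CACGTGAC of lysosomal promoters, which overlap in CACGTGA. A gene was counted if any of its windows held the motif, and the 27025 genes of the reference were not limited to those tested. For most pairs of motif and list no value is given here. A match describes letters and is not a bound site. The 200 bases before the start of Mki67 (chr7:135716380-135716579, minus strand) and of Ccnb2 (chr9:70421555-70421754, minus strand) read as follows, with each TTTGAA in capitals.
Mki67: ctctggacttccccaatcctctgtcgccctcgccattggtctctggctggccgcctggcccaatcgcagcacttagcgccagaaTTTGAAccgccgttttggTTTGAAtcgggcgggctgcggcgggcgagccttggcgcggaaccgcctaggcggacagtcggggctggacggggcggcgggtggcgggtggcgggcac
Ccnb2: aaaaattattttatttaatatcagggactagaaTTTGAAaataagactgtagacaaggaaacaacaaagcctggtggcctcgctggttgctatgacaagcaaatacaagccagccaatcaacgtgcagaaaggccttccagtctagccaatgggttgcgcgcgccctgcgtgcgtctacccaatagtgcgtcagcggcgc

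Interferon-induced genes were the second block lower in PM. Type I interferon signals through STAT proteins and IRF9, which bind the interferon-stimulated response element, and resting macrophages are known to hold a tonic level of these transcripts. Of 31 members tested, 29 were lower in PM, none higher, and 26 were at least 2-fold lower in both genotypes, with a median log2 change of -2.15. The members summed to 174 and 179 FPKM in WT and KO PM, against 799 and 819.8 FPKM in BMDM. Irf7, a transcription factor of the interferon loop, stood at 4.3 and 3.26 FPKM in WT and KO PM, against 83.5 and 75.2 FPKM in BMDM (log2 change -4.18, SE 0.14, adjusted p = 1.48e-11). Oas2, an enzyme that senses double-stranded RNA, stood at 0.47 and 0.56 FPKM in WT and KO PM, against 33.7 and 37.9 FPKM in BMDM (log2 change -5.91, SE 0.17, adjusted p = 2.61e-12). Ifit3, an antiviral protein whose gene has a near copy, Ifit3b, stood at 0.19 and 0.22 FPKM in WT and KO PM, against 22.4 and 20.2 FPKM in BMDM (log2 change -6.46, SE 0.25, adjusted p = 4.4e-11).

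The factors of the pathway themselves followed. Stat2 had a log2 change of -2.11 (SE 0.12) and Irf9 of -1.46 (SE 0.12). Bst2, also called tetherin, which holds budding virus at the cell surface, had the highest level of the list, at 48.8 and 42.2 FPKM in WT and KO PM, against 158 and 159 FPKM in BMDM (log2 change -1.60, SE 0.12, adjusted p = 3.48e-08). Isg15, a ubiquitin-like modifier, stood at 2.6 and 6.35 FPKM in WT and KO PM, against 17.4 and 18.4 FPKM in BMDM (log2 change -1.82, SE 0.25, adjusted p = 2.65e-05; -2.51 without the KO PM library). Of the members not called, 1 was Isg20, at 2.19 and 2.29 FPKM in WT and KO PM, against 3.93 and 3.35 FPKM in BMDM (adjusted p = 0.193). The other was Phf11d, at 2.67 and 4.25 FPKM in WT and KO PM, against 4.16 and 3.37 FPKM in BMDM (adjusted p = 0.811). Ifi35 (-0.36) and Rsad2 (-0.51) were called but lost the call in DESeq2, and without the WT PM library (-0.32 for Ifi35 and -0.28 for Rsad2); Ifi35 also lost it without the KO PM library (-0.38) or the KO BMDM library (-0.29). Neither PM library overlapped a BMDM library in the sum over the list.

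The interferon-stimulated response element, searched as GAAA repeated after 2 free bases, was in the promoter windows of 11 of the 23 matched members (47.8%), against 3.99% of all 27025 genes. Sequences of 2 members are shown because they carry it close to their start and were among the genes with large differences. They are the 200 bases before the start of Ifit3 (chr19:34583329-34583528, plus strand) and of Oas3 (chr5:120777660-120777859, minus strand), with the motif in capitals; Ifit3 carries it on the opposite strand, 2 times. Oas3, another sensor of double-stranded RNA, stood at 4.32 and 6.38 FPKM in WT and KO PM, against 53 and 58.6 FPKM in BMDM (log2 change -3.20, SE 0.13, adjusted p = 7.17e-11).
Ifit3: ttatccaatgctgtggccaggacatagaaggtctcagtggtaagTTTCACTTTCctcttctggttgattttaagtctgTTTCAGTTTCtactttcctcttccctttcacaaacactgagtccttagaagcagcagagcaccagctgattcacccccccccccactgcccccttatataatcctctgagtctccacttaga
Oas3: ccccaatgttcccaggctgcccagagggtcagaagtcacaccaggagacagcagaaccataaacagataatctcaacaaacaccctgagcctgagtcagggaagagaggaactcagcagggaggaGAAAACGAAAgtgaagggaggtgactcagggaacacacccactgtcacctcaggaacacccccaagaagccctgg

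Genes of the lysosome were mostly higher in PM. The lysosome digests what a macrophage takes up, and the vacuolar ATPase (V-ATPase) acidifies it. Of 36 members tested 27 were higher, 3 lower and 6 not called; the median log2 change was 0.58, and 6 members were at least 2-fold higher in both genotypes. On FPKM values with limma, which called 18.7% of all its genes higher and 39.4% lower, 20 were higher and 5 lower. The list summed to 50131 and 47147 FPKM in WT and KO PM, against 27641 and 28888 FPKM in BMDM. Ctsd, the aspartic protease cathepsin D, stood at 13046 and 10859 FPKM in WT and KO PM, against 6444 and 6683 FPKM in BMDM (log2 change 1.06, SE 0.17, adjusted p = 0.000132). Psap, the precursor of the saposins that help to degrade sphingolipids, stood at 10212 and 9417 FPKM in WT and KO PM, against 4140.3 and 4456 FPKM in BMDM (log2 change 1.40, SE 0.17, adjusted p = 8.63e-06). Ctss, cathepsin S, stood at 6146 and 6904 FPKM in WT and KO PM, against 2666 and 3032 FPKM in BMDM (log2 change 1.40, SE 0.15, adjusted p = 2.38e-06).

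Atp6v0d2, a subunit of the V-ATPase known from osteoclasts and macrophages, had a much larger difference than the other subunits: it stood at 770.1 and 907 FPKM in WT and KO PM, against 39 and 32.8 FPKM in BMDM (log2 change 4.75, SE 0.16, adjusted p = 1.6e-11). Its paralog Atp6v0d1 stood at 188 and 179 FPKM in WT and KO PM, against 127 and 137 FPKM in BMDM (log2 change 0.68, SE 0.12, adjusted p = 0.000194). The subunit genes Atp6v1a (0.94, SE 0.13), Atp6v1b2 (1.41, SE 0.13), Atp6v1h (1.49, SE 0.11) and Atp6v0c (1.11, SE 0.14) were higher as well. Tfeb, a master regulator of lysosomal genes, stood at 43.5 and 32.2 FPKM in WT and KO PM, against 29.1 and 31.9 FPKM in BMDM (log2 change 0.50, SE 0.14, adjusted p = 0.00641), and its relative Tfe3 was not called (adjusted p = 0.351). Without the WT PM library Tfeb was at 0.26 and not called, nor was it called by limma. Lower members were Ctsf (-1.51, SE 0.18), Ctsc (-0.72, SE 0.11) and Grn (-0.38, SE 0.14), the last of which lost its call without the KO BMDM library (-0.33). Of 9 tested genes of the osteoclast lineage, to which Ctsk and Atp6v0d2 also belong, 4 were higher and 3 lower. Acp5, tartrate-resistant acid phosphatase, stood at 65.1 and 69.7 FPKM in WT and KO PM, against 8.56 and 8.89 FPKM in BMDM (log2 change 3.13, SE 0.12, adjusted p = 4.91e-11), and Nfatc1, the transcription factor of osteoclast formation, was lower (log2 change -0.62, SE 0.11, adjusted p = 0.000203).

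TCACGTGA, the core of the element that TFEB binds in lysosomal promoters, was in 6 of 28 matched windows of the lysosome list (21.4%), against 1.12% of all 27025 genes, and CACGTGAC in 8 (28.6%), against 2.55%. The 200 bases before the start of Ctsd (chr7:142387828-142388027, minus strand) and Atp6v1a (chr16:44139260-44139459, minus strand) are shown, with TCACGTGA in capitals. Among members that carry it in these bases, they were taken by the size of the log2 change. Ctsd is also the most abundant member of the list, and Atp6v1a encodes a V-ATPase subunit.
Ctsd: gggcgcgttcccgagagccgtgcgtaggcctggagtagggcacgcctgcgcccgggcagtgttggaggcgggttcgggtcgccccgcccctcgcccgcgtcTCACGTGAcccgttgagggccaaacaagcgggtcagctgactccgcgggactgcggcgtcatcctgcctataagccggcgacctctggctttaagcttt
Atp6v1a: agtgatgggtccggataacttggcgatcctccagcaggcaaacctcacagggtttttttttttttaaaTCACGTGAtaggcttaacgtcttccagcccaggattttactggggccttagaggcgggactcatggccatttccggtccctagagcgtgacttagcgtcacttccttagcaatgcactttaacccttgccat

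Lipid uptake and storage genes were mostly higher in PM. Macrophages take up lipoproteins and dying cells and store the lipid as droplets, under the control of the nuclear receptor PPAR-gamma. Of 25 members of the list of PPAR-gamma targets, lipid uptake and lipid droplet genes, 16 were higher and 3 lower, with a median of 0.91, against 12 higher and 4 lower with limma. The list summed to 5424 and 5251 FPKM in WT and KO PM, against 2408 and 2235 FPKM in BMDM. Pparg, the nuclear receptor that drives these genes, stood at 64.6 and 68.8 FPKM in WT and KO PM, against 31.9 and 27.1 FPKM in BMDM (log2 change 1.39, SE 0.11, adjusted p = 1.04e-07). Cd36, the receptor for oxidised lipoprotein and long-chain fatty acid, stood at 554 and 714 FPKM in WT and KO PM, against 85 and 72.2 FPKM in BMDM (log2 change 3.21, SE 0.16, adjusted p = 5.68e-10). Fabp4 and Fabp5 encode fatty acid carriers. Fabp4 stood at 551 and 401 FPKM in WT and KO PM, against 79.1 and 67.9 FPKM in BMDM (log2 change 2.88, SE 0.12, adjusted p = 1.2e-10). Fabp5 stood at 1350.1 and 970.2 FPKM in WT and KO PM, against 286 and 259 FPKM in BMDM (log2 change 2.27, SE 0.14, adjusted p = 4.96e-09).

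Several enzymes and coats of the lipid droplet were higher in PM. Mgll, monoglyceride lipase, stood at 50.9 and 33.6 FPKM in WT and KO PM, against 0.88 and 0.52 FPKM in BMDM (log2 change 6.12, SE 0.15, adjusted p = 1.26e-12). Plin2, the main droplet coat protein of macrophages, stood at 1020.2 and 1242 FPKM in WT and KO PM, against 626 and 635 FPKM in BMDM (log2 change 1.04, SE 0.14, adjusted p = 1.48e-05). Hilpda, an inhibitor of droplet lipolysis, stood at 18.7 and 24.1 FPKM in WT and KO PM, against 4.56 and 3.23 FPKM in BMDM (log2 change 2.65, SE 0.21, adjusted p = 7.81e-08). Lipa, the lysosomal acid lipase, had a log2 change of 1.04 (SE 0.14) and Soat1, which esterifies cholesterol, of 0.91 (SE 0.12). The members lower in PM were Acsl1 (-0.40, SE 0.11) and, near the detection limit, Dgat2 (-2.57, SE 0.82; -1.62 and not called without the WT PM library, -7.07 without the KO PM library) and Pdk4 (-5.49, SE 0.77; -4.64 and -8.57 without these libraries). Gpnmb, a glycoprotein of lipid-laden macrophages, was among the 8 most abundant genes of PM at 8301 and 9621 FPKM in WT and KO PM, against 2880.2 and 3011 FPKM in BMDM (log2 change 1.80, SE 0.17, adjusted p = 6.75e-07).

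**Figure D3:**
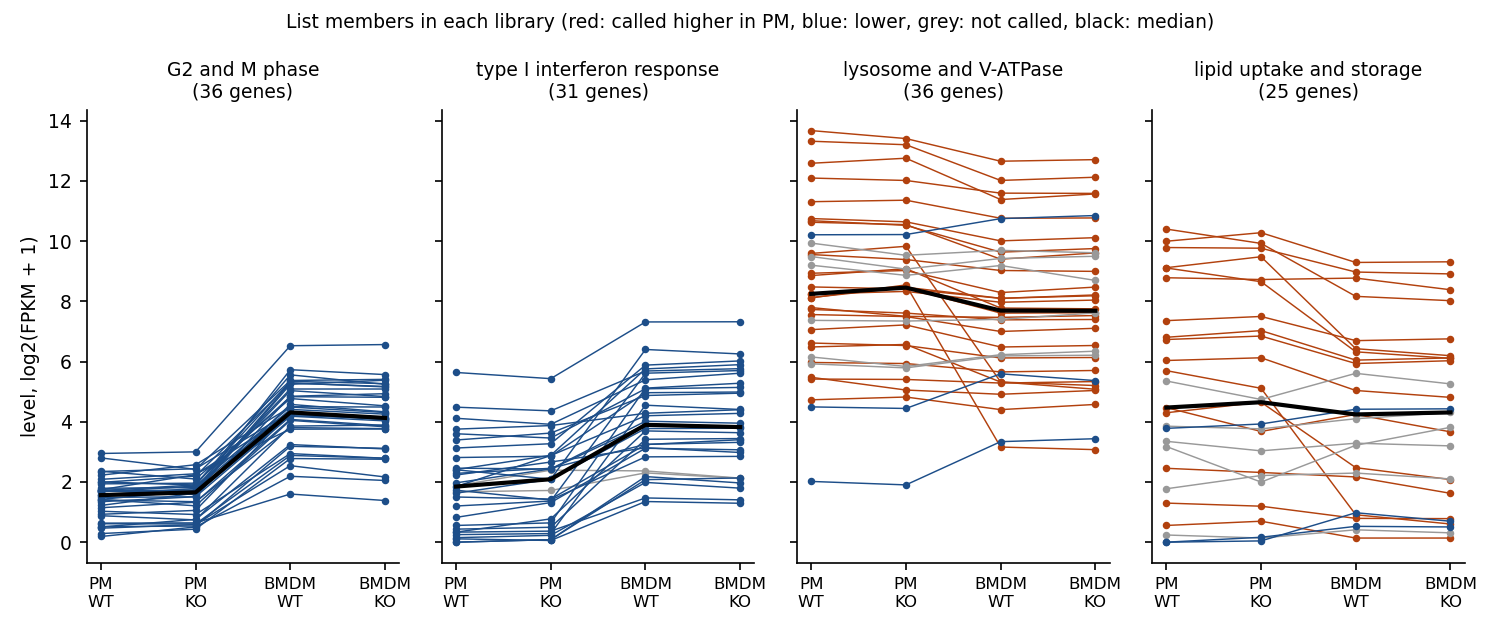
Every tested member of 4 lists (36, 31, 36 and 25 genes) as log2(FPKM + 1) in each of the 4 libraries; orange lines were called higher in PM, blue lower, grey not called, and the black line is the list's median. Members of the G2 and M phase and the interferon lists mostly lie lower in both PM libraries, and those of the lysosome and lipid lists mostly higher.

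The macrophage label held in both cell types, with a different profile in each. Of 16 core macrophage genes 7 were higher in PM and 7 lower (4 and 8 with limma). Cd68, a lysosomal glycoprotein used as a pan-macrophage marker, stood at 2536 and 2626 FPKM in WT and KO PM, against 1732 and 1745 FPKM in BMDM (log2 change 0.77, SE 0.14, adjusted p = 0.000272). Lgals3, galectin 3, stood at 5990.0 and 5681 FPKM in WT and KO PM, against 2531 and 2892 FPKM in BMDM (log2 change 1.31, SE 0.16, adjusted p = 6.39e-06). Cd63, a tetraspanin gene, stood at 1569 and 1542 FPKM in WT and KO PM, against 526 and 537 FPKM in BMDM (log2 change 1.75, SE 0.13, adjusted p = 3.75e-08). Lyz2, lysozyme, stood at 7311 and 5529 FPKM in WT and KO PM, against 10496 and 10554 FPKM in BMDM (log2 change -0.53, SE 0.17, adjusted p = 0.0154), and Laptm5 and Mertk were not called (adjusted p = 0.403 and 0.106).

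Several surface markers used to gate macrophages were lower in PM. Adgre1, which encodes F4/80, stood at 46.1 and 34.1 FPKM in WT and KO PM, against 399 and 368 FPKM in BMDM (log2 change -3.07, SE 0.14, adjusted p = 2.64e-10). Fcgr1, the high-affinity receptor for immunoglobulin G, stood at 3.95 and 1.94 FPKM in WT and KO PM, against 72.4 and 65.9 FPKM in BMDM (log2 change -4.38, SE 0.18, adjusted p = 8.26e-11; -4.975 without the WT PM library). Itgam, which encodes CD11b, stood at 66.3 and 66.5 FPKM in WT and KO PM, against 176 and 167 FPKM in BMDM (log2 change -1.17, SE 0.12, adjusted p = 1.41e-06). Cd14, which helps TLR4 to bind lipopolysaccharide, stood at 105 and 134 FPKM in WT and KO PM, against 427 and 450.5 FPKM in BMDM (log2 change -1.68, SE 0.12, adjusted p = 3.81e-08). None of these 4 genes had overlapping libraries between the cell types. Each was called and at least 2-fold lower in PM in both genotypes, which makes this likely, so it is a description only. Of 24 genes linked to M-CSF or BMDM, 13 were lower and 9 higher, including Gpnmb, Cd9 (1.63, SE 0.12) and Plaur, the urokinase receptor (2.50, SE 0.11).

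Transcription factors of the macrophage had members in both directions. Of 28 tested, 10 were higher, 10 lower and 8 not called, where 27.5% of all genes tested were called in either direction; with limma 7 were higher and 12 lower. Spi1, which encodes the myeloid master regulator PU.1, stood at 279 and 258 FPKM in WT and KO PM, against 287 and 317 FPKM in BMDM and was not called (adjusted p = 0.839), nor were Cebpa (adjusted p = 0.55) and Irf8 (adjusted p = 0.0722). Bhlhe40, a repressor that supports macrophage renewal, stood at 137 and 142 FPKM in WT and KO PM, against 17.9 and 17.4 FPKM in BMDM (log2 change 3.18, SE 0.12, adjusted p = 4.31e-11). Egr2 stood at 42.3 and 45.1 FPKM in WT and KO PM, against 6.34 and 4.18 FPKM in BMDM (log2 change 3.27, SE 0.15, adjusted p = 1.83e-10). Nr1h3, which encodes the oxysterol receptor LXR-alpha, had a log2 change of 1.33 (SE 0.12) and Cebpb of 1.09 (SE 0.13). Maf, a basic leucine zipper factor of macrophages, had a log2 change of -1.72 (SE 0.11). Id3, an inhibitor of basic helix-loop-helix factors, stood at 12.6 and 12.2 FPKM in WT and KO PM, against 117 and 133 FPKM in BMDM (log2 change -3.13, SE 0.13, adjusted p = 1.11e-10).

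Genes of the resident large peritoneal macrophage were mostly higher in PM: 14 of 21 tested members, with 3 lower (8 and 2 with limma) and a median of 1.28. Gata6, their identity factor, stood at 5.61 and 5.87 FPKM in WT and KO PM and at 0 in both BMDM libraries, at least 260-fold higher with 3 counts as the floor over both BMDM libraries. Rarb, the retinoic acid receptor beta, stood at 1.6 and 1.83 FPKM in WT and KO PM, against 0.14 and 0.17 FPKM in BMDM (log2 change 3.64, SE 0.38, adjusted p = 1.36e-06). Slpi, a protease inhibitor, stood at 10.4 and 10.5 FPKM in WT and KO PM, against 0.65 and 0.76 FPKM in BMDM (log2 change 4.07, SE 0.30, adjusted p = 4.18e-08). Vsig4, a complement receptor, stood at 5.93 and 2.71 FPKM in WT and KO PM, against 0.03 and 0.03 FPKM in BMDM; on 133 counts against 2 the ratio was 129-fold (95% counting interval 35.1 to 1080). Timd4, a receptor for dying cells that marks long-lived residents, was at 0.04 FPKM in each PM library. Markers of the mesothelium, the lining of the cavity, were also present in PM and at 0 in BMDM: Lrrn4 at 7.8 and 7.27 FPKM, Wt1 at 5.53 and 6.12 FPKM, Upk3b at 7.18 and 6.34 FPKM and Upk1b at 4.67 and 3.89 FPKM in WT and KO PM. Wt1 and Upk3b were at 0 in every BMDM table, with the same limit as Gm5148. The part of mesothelial cells in the values of Gata6 and the other genes of the list was not tested.

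The list of monocyte-derived peritoneal macrophage genes had 4 higher and 4 lower members of 9. Retnla was at 7.29 and 5.77 FPKM in WT and KO PM and at 0 in both BMDM libraries, at least 52.5-fold higher by the same floor, and lost its call in DESeq2. Ccr2, the receptor that brings monocytes out of the marrow, stood at 0.26 and 0.1 FPKM in WT and KO PM, against 21 and 22 FPKM in BMDM (log2 change -6.70, SE 0.24, adjusted p = 1.87e-11; -7.525 without the WT PM library). Of 12 monocyte markers 9 were lower and 3 higher, and the list summed to 210.4 and 241 FPKM in WT and KO PM, against 696 and 758 FPKM in BMDM. S100a4 held most of the BMDM sums, at 81.7 and 114 FPKM in WT and KO PM, against 540.0 and 641 FPKM in BMDM, and without it the list summed to 129 and 126.5 FPKM in WT and KO PM, against 156 and 117 FPKM in WT and KO BMDM.

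Chemoattractant receptors steer migration. All 14 tested were called, 5 higher in PM and 9 lower, where 55.0% of all genes tested were called. Of these, 3 and 7 passed 2-fold in both genotypes. Cmklr1 was called higher but overlapped, at 12.7 and 9.16 FPKM in WT and KO PM, against 10.5 and 8.35 FPKM in BMDM. Ccr3, called lower, was at 0 in PM and at 0.78 and 0.3 FPKM in WT and KO BMDM. Ccr7, Fpr1, Fpr2 and Ltb4r1 were at 0.48 FPKM or less and were not tested. Ccr1, a receptor for CC chemokines of inflammation, stood at 15.2 and 19.3 FPKM in WT and KO PM, against 1.85 and 0.77 FPKM in BMDM (log2 change 3.94, SE 0.25, adjusted p = 6.98e-09; 4.675 without the WT BMDM library). Ccrl2, an atypical receptor that presents chemerin, stood at 74.1 and 83.8 FPKM in WT and KO PM, against 7.87 and 9.07 FPKM in BMDM (log2 change 3.43, SE 0.12, adjusted p = 1.66e-11). Ptafr, the receptor of platelet-activating factor, stood at 169 and 173 FPKM in WT and KO PM, against 52.9 and 49.9 FPKM in BMDM (log2 change 1.94, SE 0.12, adjusted p = 6.4e-09). Cx3cr1 and Ccr2 were among the lower members. C5ar1, the receptor for the complement fragment C5a, stood at 47.3 and 28.7 FPKM in WT and KO PM, against 221 and 184 FPKM in BMDM (log2 change -2.24, SE 0.14, adjusted p = 6.4e-09).

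Chemokine genes had no common direction. Of 8 tested CC chemokines 4 were higher and 4 lower, and of 11 CXC chemokines 4 and 4 (2 and 5 with limma). Cxcl9 and Cxcl11, called higher, averaged under 1 FPKM and were not in the limma fit. Ccl6 stood at 289 and 128 FPKM in WT and KO PM, against 89.1 and 75.7 FPKM in BMDM (log2 change 1.43, SE 0.18, adjusted p = 9.45e-06), with KO PM well below WT PM; its change was 0.81 without the WT PM and 2.05 without the KO PM library. Ccl9 was lower in PM (log2 change -2.43, SE 0.12, adjusted p = 7.34e-10). Cxcl16, the membrane-bound ligand of CXCR6 and a scavenger receptor, stood at 21.8 and 23.3 FPKM in WT and KO PM, against 160.3 and 174 FPKM in BMDM (log2 change -2.69, SE 0.12, adjusted p = 1.8e-10). Cxcl14 stood at 1.71 and 2.23 FPKM in WT and KO PM, against 27.2 and 29.4 FPKM in BMDM (log2 change -3.65, SE 0.17, adjusted p = 1.83e-10). Cxcl13, which attracts B cells, was at 2.5 and 4.23 FPKM in WT and KO PM and at 0 in all 4 BMDM tables, with the same limit as Gm5148, and lost its call in DESeq2.

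Innate sensors were lower in PM more often than higher, in 15 of 25 against 4, and 6 were not called. Over all genes tested, 27.5% were called higher and 27.5% lower, which also applies to the receptor lists below. Tlr9, the sensor of unmethylated CpG DNA, stood at 2.04 and 1.83 FPKM in WT and KO PM, against 21.9 and 22 FPKM in BMDM (log2 change -3.30, SE 0.14, adjusted p = 1.31e-10). Tlr2, which senses bacterial lipoprotein, stood at 7.14 and 7.73 FPKM in WT and KO PM, against 39 and 46.6 FPKM in BMDM (log2 change -2.32, SE 0.12, adjusted p = 9.42e-10). Nlrp3, the inflammasome sensor, stood at 1.3 and 0.77 FPKM in WT and KO PM, against 13.8 and 13.5 FPKM in BMDM (log2 change -3.53, SE 0.18, adjusted p = 9e-10). Tlr4, the lipopolysaccharide receptor, stood at 14.5 and 16.4 FPKM in WT and KO PM, against 18.7 and 18.4 FPKM in BMDM and was not called (adjusted p = 0.621). Of 12 C-type lectin receptors 2 were higher and 7 lower. Clec7a, which encodes dectin 1, the receptor for fungal beta-glucan, was 1 of the 2 higher, at 297 and 280.3 FPKM in WT and KO PM, against 37.1 and 36.4 FPKM in BMDM (log2 change 3.17, SE 0.13, adjusted p = 6.19e-11). Of 15 scavenger receptors 6 were higher and 6 lower (4 and 7 with limma), and of 7 Fc receptors 3 and 3; Fcgr2b, the inhibitory receptor, had a log2 change of 1.30 (SE 0.11).

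Inflammatory and NF-kB genes showed 6 higher and 15 lower members of 24, where 27.5% of all genes tested were called in each direction. Il1a, an alarmin cytokine, stood at 7.88 and 6.08 FPKM in WT and KO PM, against 0.11 and 0.1 FPKM in BMDM (log2 change 6.17, SE 0.32, adjusted p = 9e-10). Tnfaip2 stood at 154 and 158 FPKM in WT and KO PM, against 58.7 and 69.3 FPKM in BMDM (log2 change 1.49, SE 0.12, adjusted p = 1.45e-07). Tnf stood at 3.09 and 2.67 FPKM in WT and KO PM, against 9.21 and 9.72 FPKM in BMDM (log2 change -1.51, SE 0.20, adjusted p = 1.39e-05). Nfkbia, the inhibitor that NF-kB induces, stood at 17.2 and 17.5 FPKM in WT and KO PM, against 55.3 and 59.5 FPKM in BMDM (log2 change -1.53, SE 0.12, adjusted p = 5.81e-08). Of 25 immediate early genes 7 were higher and 14 lower: Jun (1.40, SE 0.12) and Atf3 (1.31, SE 0.12) were among the first, and Fos (-2.49, SE 0.15) and Nr4a1 (-3.97, SE 0.25) among the second. Of 15 markers of IL-4 and alternative activation 7 were higher and 3 lower; Arg1 was at 1.28 FPKM or less in all 4 libraries and was not called (adjusted p = 0.0964).

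Complement genes parted by component. Of 15 tested 8 were higher in PM and 5 lower. C4b, which encodes complement C4 and has a close copy, stood at 6.37 and 4.19 FPKM in WT and KO PM, against 0.57 and 0.33 FPKM in BMDM (log2 change 3.77, SE 0.18, adjusted p = 4.09e-10). C1s1, a protease of the C1 complex, stood at 9.9 and 10.6 FPKM in WT and KO PM, against 0.87 and 0.3 FPKM in BMDM (log2 change 4.35, SE 0.26, adjusted p = 4.39e-09), while the C1q chains were lower. Its change was 5.24 without the WT BMDM and 3.76 without the KO BMDM library. Cfp, properdin, stood at 19.4 and 13.2 FPKM in WT and KO PM, against 111 and 102 FPKM in BMDM (log2 change -2.53, SE 0.14, adjusted p = 1.11e-09). C3 stood at 44.1 and 45.5 FPKM in WT and KO PM, against 38.5 and 28.5 FPKM in BMDM (log2 change 0.64, SE 0.12, adjusted p = 0.000545). Cd55, which speeds the decay of complement convertases, stood at 8.45 and 9.78 FPKM in WT and KO PM, against 0.06 and 0.28 FPKM in BMDM (log2 change 5.96, SE 0.31, adjusted p = 9e-10; 5.20 without the WT BMDM and 7.46 without the KO BMDM library). In the coagulation and fibrinolysis list 9 of 16 were higher, led by F10 and F7, and 5 lower. Procr, the receptor of protein C, stood at 17.5 and 26.3 FPKM in WT and KO PM, against 4.63 and 4.62 FPKM in BMDM (log2 change 2.42, SE 0.17, adjusted p = 1.76e-08). Thbs1, thrombospondin 1, stood at 5.04 and 5.83 FPKM in WT and KO PM, against 98.5 and 66.7 FPKM in BMDM (log2 change -3.70, SE 0.16, adjusted p = 1.54e-10).

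Matrix genes were lower in PM in 20 of 27 members and higher in 3, with a median log2 change of -1.59, and the list summed to 1829 and 1590.1 FPKM in WT and KO PM, against 4461 and 3384 FPKM in BMDM. Spp1, osteopontin, was its most abundant member, at 1294 and 1076 FPKM in WT and KO PM, against 2883 and 2240.3 FPKM in BMDM (log2 change -0.91, SE 0.14, adjusted p = 6.42e-05). Col1a1, a chain of type I collagen, stood at 32.9 and 30.7 FPKM in WT and KO PM, against 209 and 109.6 FPKM in BMDM (log2 change -2.05, SE 0.16, adjusted p = 8.81e-08). Postn, periostin, stood at 0.55 and 0.55 FPKM in WT and KO PM, against 27.5 and 17.1 FPKM in BMDM (log2 change -5.10, SE 0.19, adjusted p = 2.95e-11). Tnc, tenascin C, stood at 0.81 and 1.52 FPKM in WT and KO PM, against 37.9 and 21.4 FPKM in BMDM (log2 change -4.41, SE 0.25, adjusted p = 2.57e-09). In all 3 the WT BMDM library was the highest. The exceptions were Dcn, decorin, at 36.4 and 34 FPKM in WT and KO PM, against 4.68 and 3.66 FPKM in BMDM (log2 change 3.28, SE 0.13, adjusted p = 7.17e-11), Fn1, fibronectin (0.93, SE 0.15), and Prg4 (0.98, SE 0.26). Fn1 lost its call without the WT PM library (0.83) or the KO PM library (0.95), and Prg4 without the WT PM (0.82), KO PM (1.07) or KO BMDM library (0.55) and in DESeq2 and limma. Of 18 fibroblast and mesothelial markers tested 11 were higher in PM and 6 lower. Acta2, smooth muscle actin, was lower at 12.2 and 14.7 FPKM in WT and KO PM, against 67.7 and 45 FPKM in BMDM (log2 change -1.84, SE 0.16, adjusted p = 1.61e-07). Pdgfrb, a receptor of fibroblasts and pericytes, was lower at 0.71 and 1.2 FPKM in WT and KO PM, against 10.6 and 5.67 FPKM in BMDM (log2 change -2.82, SE 0.26, adjusted p = 3.38e-07). Pdgfra, another fibroblast marker, was higher in PM at 7.84 and 10.1 FPKM in WT and KO PM, against 1.77 and 1.16 FPKM in BMDM (log2 change 2.82, SE 0.18, adjusted p = 7.2e-09). All 20 markers of that list summed to 321 and 369 FPKM in WT and KO PM, against 537 and 305 FPKM in BMDM; their part in the matrix list was not tested.

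The TGF-beta list, with 5 higher and 13 lower members of 25, held Tgfbi and several feedback inhibitors of the pathway. Skil, an inhibitor of SMAD proteins, stood at 4.73 and 5.59 FPKM in WT and KO PM, against 37.6 and 39.8 FPKM in BMDM (log2 change -2.72, SE 0.12, adjusted p = 1.31e-10), and Smad6 and Smad7, which block the receptors, had log2 changes of -2.72 (SE 0.17) and -1.70 (SE 0.16). The ligand Tgfb1 stood at 243 and 199 FPKM in WT and KO PM, against 249.8 and 262 FPKM in BMDM and was not called (adjusted p = 0.916). Inhba, the activin A subunit, stood at 0.49 and 1.08 FPKM in WT and KO PM, against 19.7 and 11.7 FPKM in BMDM (log2 change -4.07, SE 0.30, adjusted p = 3.87e-08; -4.75 without the KO PM library). Of 19 metalloproteinases and inhibitors 5 were higher and 11 lower: Mmp19 had a log2 change of 3.55 (SE 0.14), and the inhibitor gene Timp1 stood at 4.29 and 3.11 FPKM in WT and KO PM, against 84.3 and 48.6 FPKM in BMDM (log2 change -3.94, SE 0.17, adjusted p = 9.91e-11).

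Growth factors and their receptors were lower in PM in 16 of 25 and higher in 7. Pdgfb stood at 3.67 and 2.71 FPKM in WT and KO PM, against 33.6 and 36 FPKM in BMDM (log2 change -3.25, SE 0.15, adjusted p = 3.18e-10), and Hgf had a log2 change of -1.75 (SE 0.13). Met, the receptor for HGF, stood at 2.67 and 3.79 FPKM in WT and KO PM, against 0.24 and 0.24 FPKM in BMDM (log2 change 3.94, SE 0.21, adjusted p = 1.21e-09). Csf2ra, a chain of the GM-CSF receptor, was not called (adjusted p = 0.978), but was called higher without the KO PM library (log2 change 0.28). Of 23 integrin and adhesion genes 9 were higher, led by Itgax and including its partner chain Itgb2 (log2 change 1.76, SE 0.14, adjusted p = 6.04e-08), and 11 were lower. Among these Itga6 stood at 8.28 and 4.27 FPKM in WT and KO PM, against 64 and 64 FPKM in BMDM (log2 change -3.21, SE 0.19, adjusted p = 3.63e-09). Genes for uptake of dying cells were higher in 5 and lower in 11 of 21. Beside Mfge8 and Cd36, which were higher, the bridging protein gene Gas6 (-2.27, SE 0.12) and its receptor gene Axl (-1.19, SE 0.11) were lower.

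Antigen presentation genes had members in both directions. Of 12 in the class II list 3 were higher and 7 lower, where 27.5% of all genes tested were called in each direction. The class II chain gene H2-Aa stood at 18.9 and 16 FPKM in WT and KO PM, against 50.2 and 47.9 FPKM in BMDM (log2 change -1.29, SE 0.13, adjusted p = 9.51e-07). Cd74, the invariant chain, stood at 119 and 113 FPKM in WT and KO PM, against 197 and 181 FPKM in BMDM (log2 change -0.51, SE 0.11, adjusted p = 0.00119), whereas Ctss and Ifi30, enzymes that process antigen, were higher. In the class I list 5 were higher and 6 lower of 14: B2m, the light chain, had a log2 change of 0.63 (SE 0.14), and Tap1, the peptide transporter, of -2.04 (SE 0.14). Of 13 co-stimulatory and checkpoint molecules 3 were higher and 7 lower. Cd274 (PD-L1) stood at 24.8 and 20.6 FPKM in WT and KO PM, against 8.96 and 8.72 FPKM in BMDM (log2 change 1.55, SE 0.12, adjusted p = 5.48e-08), and Cd40, a receptor for help from T cells, at 0.41 and 0.33 FPKM in WT and KO PM, against 2.87 and 2.91 FPKM in BMDM (log2 change -2.78, SE 0.39, adjusted p = 2.64e-05).

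Metabolic lists differed by less, and the direction of several depended on the scale. In oxidative phosphorylation 18 of 34 members were higher in PM and none lower, with a median log2 change of 0.29; on FPKM values with limma 11 were higher and 1 lower. Uqcrb, a subunit of complex III, stood at 162 and 175 FPKM in WT and KO PM, against 71.5 and 74.3 FPKM in BMDM (log2 change 1.41, SE 0.11, adjusted p = 8.34e-08). The unfolded protein and heat shock list had 10 of 20 higher and none lower, among them the chaperone gene Hsp90aa1 (log2 change 1.23, SE 0.13, adjusted p = 1.41e-06), and 7 higher and 1 lower with limma. The tricarboxylic acid cycle list had 9 higher and 5 lower of 25, which became 3 and 8 with limma. Fatty acid oxidation, at 9 higher and 5 lower of 21, became 3 and 7, and cholesterol synthesis, at 13 and 8 of 29, became 6 and 14. Cytosolic ribosomal protein genes were mostly not called, 27 of 36, with 4 higher and 5 lower, but with limma none was higher and 13 were lower.

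Single genes within these pathways differed by far more than their lists. Fdft1, squalene synthase, stood at 82.4 and 91.3 FPKM in WT and KO PM, against 9.97 and 8.25 FPKM in BMDM (log2 change 3.46, SE 0.13, adjusted p = 3.75e-11). In the list of cholesterol efflux and LXR targets, with 6 higher and 5 lower of 15 (3 and 7 with limma), the exporter gene Abcg1 was higher (log2 change 1.81, SE 0.13, adjusted p = 1.95e-08) and Abca1 lower (log2 change -1.13, SE 0.11, adjusted p = 8.24e-07). Of 25 glycolysis genes 8 were higher and 10 lower, where 27.5% of all genes tested were called in each direction. Hk3, hexokinase 3, stood at 290.3 and 285 FPKM in WT and KO PM, against 71.3 and 76.1 FPKM in BMDM, and was higher in PM (adjusted p = 2.87e-09). The lactate exporter gene Slc16a3 stood at 8.96 and 8.4 FPKM in WT and KO PM, against 40.1 and 38.7 FPKM in BMDM (log2 change -1.98, SE 0.12, adjusted p = 4.55e-09). Acadl, a long-chain fatty acid dehydrogenase, had a log2 change of 1.41 (SE 0.11) and Cpt1a, the gate of mitochondrial import, of -0.72 (SE 0.11).

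Redox and iron genes held large single differences as well. Slc7a11, the cystine importer, stood at 30.5 and 28.4 FPKM in WT and KO PM, against 0.34 and 0.17 FPKM in BMDM (log2 change 7.04, SE 0.18, adjusted p = 1.65e-12). The NRF2 antioxidant list had 12 higher and 6 lower of 22 (8 and 7 with limma); Sod1, the cytosolic superoxide dismutase, was lower at 80.7 and 68.5 FPKM in WT and KO PM, against 224 and 245 FPKM in BMDM (log2 change -1.45, SE 0.12, adjusted p = 1.87e-07). The ATF4 and amino acid list, to which Slc7a11 also belongs, had 11 higher and 4 lower of 24. In iron handling 9 were higher and 4 lower of 21, where 27.5% of all genes tested were called in each direction. Slc40a1, the iron exporter ferroportin, stood at 0.76 and 0.56 FPKM in WT and KO PM, against 6.6 and 7.87 FPKM in BMDM (log2 change -3.24, SE 0.22, adjusted p = 1.66e-08). The haem synthesis gene Alas1 stood at 77.3 and 79.5 FPKM in WT and KO PM, against 26.7 and 25.2 FPKM in BMDM (log2 change 1.80, SE 0.11, adjusted p = 5.16e-09). Of 9 genes of the phagocyte NADPH oxidase 4 were higher and 1 lower (3 and 3 with limma). Hvcn1, the proton channel that sustains it, stood at 196 and 206 FPKM in WT and KO PM, against 40.9 and 47.5 FPKM in BMDM (log2 change 2.38, SE 0.12, adjusted p = 9.37e-10).

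Eicosanoid synthesis genes, 7 higher and 6 lower of 19, held genes near the detection limit in 1 of the cell types. Of all genes tested 27.5% were called in each direction. Ptgis, prostacyclin synthase, stood at 17.1 and 15.7 FPKM in WT and KO PM, against 0 and 0.03 FPKM in BMDM; on 621 counts against 1 the ratio was 1210-fold (95% counting interval 216 to 47800). Lta4h, which makes leukotriene B4, was higher (log2 change 1.77, SE 0.12, adjusted p = 9.44e-09). Hpgd, which inactivates prostaglandins, stood at 0.92 and 0.91 FPKM in WT and KO PM, against 33.8 and 36.9 FPKM in BMDM (log2 change -5.07, SE 0.19, adjusted p = 2.64e-11). Alox5ap, which helps 5-lipoxygenase, stood at 95.1 and 69.7 FPKM in WT and KO PM, against 311 and 363 FPKM in BMDM (log2 change -1.85, SE 0.15, adjusted p = 1.3e-07). In arginine and polyamine metabolism 6 were higher and 6 lower of 20 (3 and 7 with limma).

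Of 6 creatine handling genes tested, Slc6a8 included, 1 was higher in PM and 3 lower. Creatine is made by the enzymes encoded by Gatm and Gamt and phosphorylated by creatine kinases. Gatm stood at 6.97 and 10.2 FPKM in WT and KO PM, against 32.6 and 37 FPKM in BMDM (log2 change -1.83, SE 0.13, adjusted p = 1.89e-08). Gamt stood at 7.38 and 7.79 FPKM in WT and KO PM, against 15.6 and 17.8 FPKM in BMDM (log2 change -0.93, SE 0.18, adjusted p = 0.000481). Ckb, the cytosolic creatine kinase, stood at 104 and 136 FPKM in WT and KO PM, against 231 and 258 FPKM in BMDM (log2 change -0.84, SE 0.12, adjusted p = 2.52e-05). All 3 were lower in both PM libraries than in either BMDM library, a description only, since genes called lower are likely to show this. Slc6a12, a betaine and GABA transporter, stood at 7.63 and 31.6 FPKM in WT and KO PM, against 5.47 and 6.7 FPKM in BMDM and was higher in PM (log2 change 1.65, SE 0.27, adjusted p = 0.000104). The KO PM library alone was far above the others, and the call was lost in DESeq2. Its change was 2.56 without the WT PM and 0.57 without the KO PM library. The taurine transporter gene Slc6a6 stood at 279 and 289 FPKM in WT and KO PM, against 274 and 274 FPKM in BMDM and was not called (adjusted p = 0.117).

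**Figure D4:**
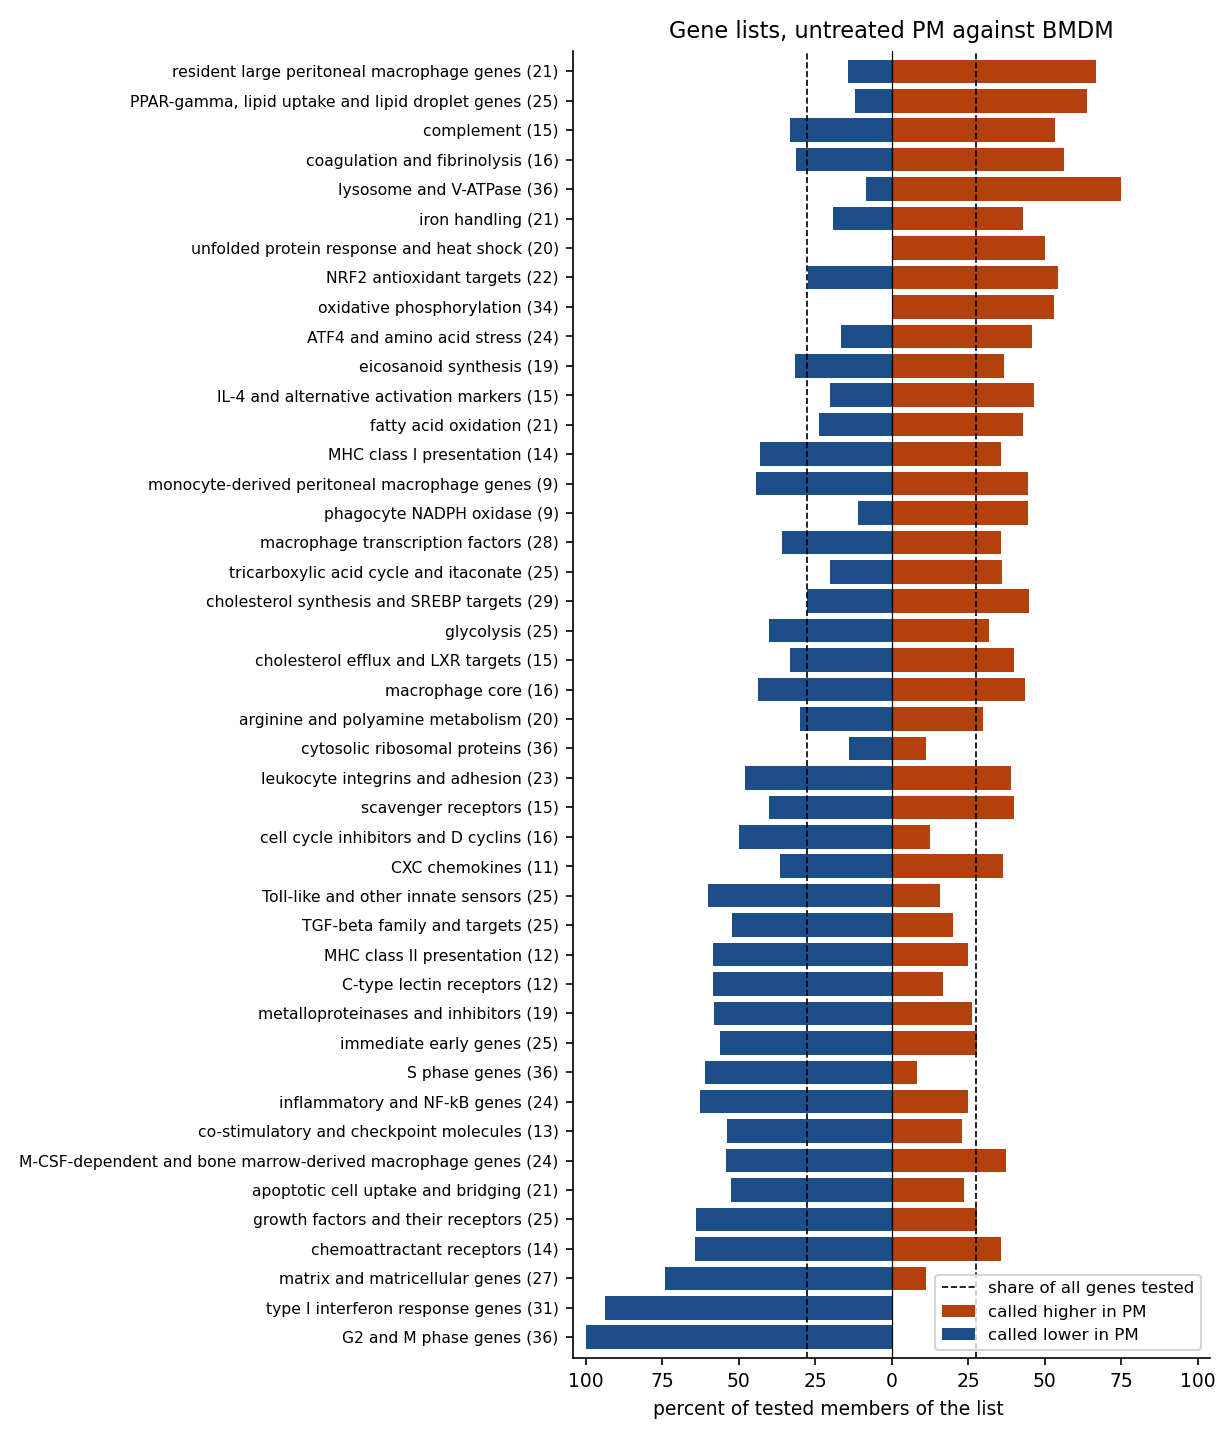
For each list of macrophage functions and pathways with at least 9 tested members, and with their number in brackets, bars give the percent called higher in PM (orange, right) and lower in PM (blue, left), in the order of the lists' median log2 changes. Dashed lines mark the 27.5% of all genes tested that were called in either direction; the G2 and M phase list reaches 100% lower and the lysosome list 75% higher. With limma on log2(FPKM + 1) the larger side turned to lower for cholesterol synthesis, cholesterol efflux, fatty acid oxidation and the tricarboxylic acid cycle.

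Markers of other cell types were low but not absent. B cell markers summed to 44 and 41.4 FPKM in WT and KO PM, against 7.54 and 6.86 FPKM in BMDM, of which Cd22, an inhibitory receptor, made up most (36.9 and 32.4 FPKM in WT and KO PM, 5.52 and 5.28 FPKM in WT and KO BMDM). Of the 9 tested, 8 were higher and 1 lower. Cd79a stood at 1.83 and 3.14 FPKM in WT and KO PM, against 0.07 and 0.07 FPKM in BMDM. Pax5 was at 0.08 FPKM in both PM libraries and 0 in BMDM. The median log2 change of the 9 was 4.99, or 3.51 with the 3 genes at 0 in BMDM set to their bound. Neutrophil markers summed to 32.2 and 29.4 FPKM in WT and KO PM, against 58.6 and 64.5 FPKM in BMDM, most of it Csf3r, with 2 of 7 tested higher and 2 lower, and Mpo and Elane were at 0.28 FPKM or less in all 4. Eosinophil markers summed to 6.13 and 7.92 FPKM in WT and KO PM, against 1.61 and 0.96 FPKM in BMDM, with 2 of 3 tested higher and 1 lower. Siglecf stood at 5.22 and 7.03 FPKM in WT and KO PM, against 0.49 and 0.37 FPKM in BMDM (log2 change 4.01, SE 0.25, adjusted p = 6.46e-09), while Epx and Prg2, granule proteins of eosinophils, were at 0 in both PM libraries.

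The remaining lists were smaller. T and NK cell markers summed to 2.69 and 3.59 FPKM in WT and KO PM, against 1.63 and 1.25 FPKM in BMDM, with 1 of 4 tested higher. Mast cell and basophil markers summed to 2.99 and 3.56 FPKM in WT and KO PM, against 1.25 and 1.69 FPKM in BMDM, with 3 of 4 higher and 1 lower and a median of 3.67 (3.47 with the gene at 0 in BMDM at its bound). Dendritic cell markers summed to 44.2 and 29 FPKM in WT and KO PM, against 23.4 and 24.9 FPKM in BMDM, with 3 of 5 higher and 1 lower; Cd24a made up most of the sum, and Flt3, Zbtb46 and Xcr1 were at 0.38 FPKM or less. Endothelial and platelet markers summed to 28.6 and 37.7 FPKM in WT and KO PM, against 48.4 and 46.4 FPKM in BMDM, with none higher and 5 of 10 lower. Of 6 erythroid and progenitor markers tested 4 were higher and 1 lower, with a median of 8.06, or 5.73 with genes at 0 in BMDM at their bounds. Of 4 sex-linked genes tested 2 were lower and 2 not called. The part of these cells in the differences between PM and BMDM was not tested.

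**Figure D5:**
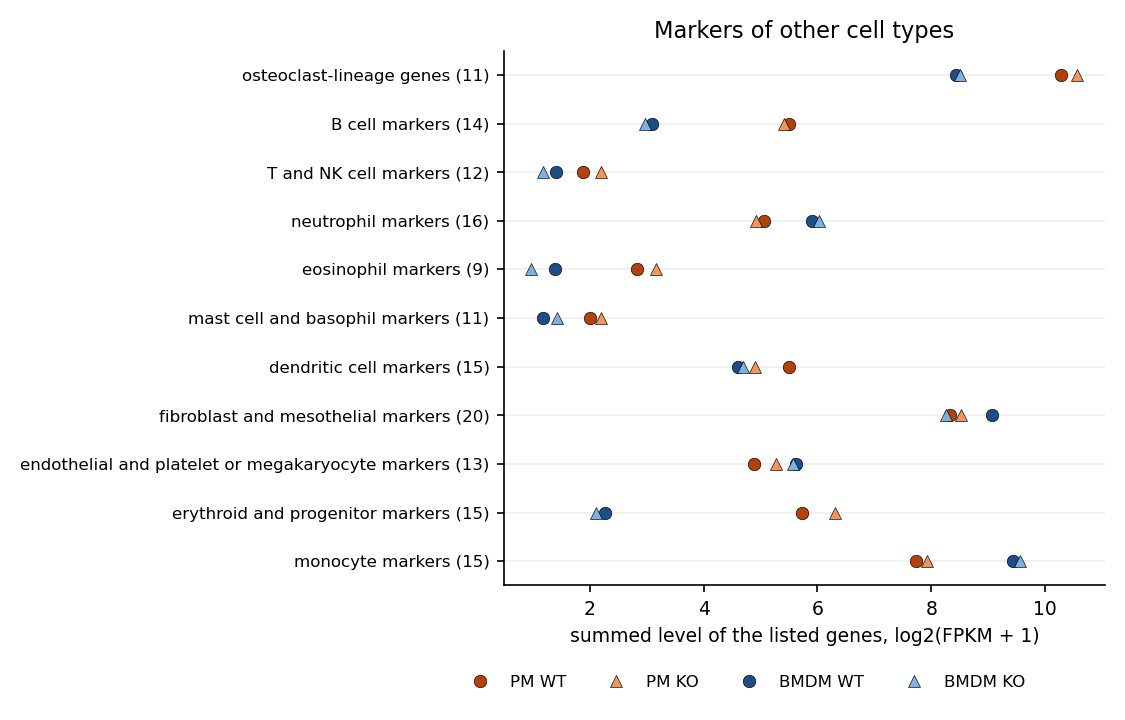
Summed level of each marker list in each library, as log2(summed FPKM + 1) on the horizontal axis (orange: PM, blue: BMDM; circles: WT, triangles: KO), with the number of genes found in brackets. Osteoclast-lineage, B cell, eosinophil and erythroid lists lie higher in both PM libraries. Most of their PM sums was Atp6v0d2 and Ctsk, Cd22, Siglecf, and globin genes, in that order. Nfatc1, Ckb and Tnfrsf11a of the osteoclast-lineage list were called lower in PM. The monocyte (most of it S100a4) and neutrophil (most of it Csf3r) lists lie higher in both BMDM libraries, and the fibroblast and mesothelial list is highest in WT BMDM.

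Many of the differences between the cell types were also seen in the cytokine-treated libraries, which differ from each other in the cytokine as well as in the cell type. Of the 573 genes higher in untreated PM, 320 (55.8%) were at least 2-fold higher in IFN-gamma-treated PM than in IL-4-treated BMDM in both genotypes, and 10 were at least 2-fold lower. Anxa1, annexin A1, was 1 of these 10. It stood at 879 and 912 FPKM in WT and KO PM, against 319.7 and 279.8 FPKM in BMDM untreated, and at 157 and 156 FPKM in WT and KO PM given IFN-gamma, against 315 and 313 FPKM in BMDM given IL-4. Of the 1110 genes lower in untreated PM, 755 (68.0%) were also at least 2-fold lower in the treated pairs, and 50 were at least 2-fold higher. H2-Aa was 1 of the 50, at 529.9 and 528 FPKM in WT and KO PM given IFN-gamma, against 69.3 and 61.9 FPKM in BMDM given IL-4. The treated pairs have no replicate and were not tested. Transcript identifiers did not differ between treated and untreated tables of a cell type, and cell type and batch cannot be told apart here either. The share of all genes tested at 2-fold in the treated pairs is not given, so these counts are a description only.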

How the data were processed

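RNA sequencing of 8 mouse macrophage libraries was deposited as 1 gene table per library. The authors' tables give, per gene, expected counts, FPKM, an estimated length and transcript identifiers; per the submitters' processing notes the tools were Bowtie2 2.2.5 and RSEM (version not given in the sources used here) on the mm10 genome. The deposited expected counts are RSEM estimates and were rounded to whole numbers here, and the deposited FPKM values were used for levels. Genes missing from a table were set to 0. Rows were joined on gene identifier; 18076 of 18125 identifiers matched RefSeq names.

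The 4 untreated libraries (1 per group, 10812678 to 21163660 expected counts) were fitted with edgeR 4.0.16 in R 4.3.3: TMM scaling, filterByExpr, genotype and cell type as terms, and the quasi-likelihood test with Benjamini-Hochberg adjustment at 0.05. The SE of a log2 change is its size divided by the square root of the F statistic. Alternatives used limma 3.58.1 on log2(FPKM + 1) and log2(FPKM + 0.1), DESeq2 1.42.0, other scalings and filters, all 8 libraries, no genotype term, and each library left out in turn (with no genotype term, the lone library of a cell type being assumed to vary like the other type). The centred ratios and a refit on genes with the same transcripts in both cell types were chosen after seeing the data. Tables and figures used Python 3.11.15, numpy 2.4.6, pandas 2.3.3 and matplotlib 3.10.9, and the fits were tested on simulated data. Ratios of counts and folds from a floor were scaled to total counts, without the TMM factors of the fit. These factors were 0.917 and 0.948 in WT and KO PM, and 1.078 and 1.066 in WT and KO BMDM. Intervals on ratios of counts cover counting error only. Where a cell type had 0 counts, a fold is a lower bound from 3 counts over both its libraries.

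Genes named outside the lists were, in each direction, up to 15 protein-coding genes with the largest ratio of FPKM + 1 among those called, 2-fold in both genotypes and at 10 FPKM or more in the higher cell type, the 8 most abundant of those 4-fold in both, the 8 most abundant of each cell type, Slc6a8, and genes at least 2-fold in opposite directions in the genotype pairs. Examples from the lists were taken from the largest differences, the highest levels and the members not called, and some for their role after their values were seen. The comparison, the 59 lists and their members were chosen with earlier results of these data known. Some genes that these rules take up are not reported here.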

Additional observations from a re-analysis of the deposited data

Results flagged for a closer look

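Among the 12911 genes tested, 3 had PM to BMDM ratios of at least 2-fold that pointed in opposite directions in the KO and the WT pair. Each rests on 1 or 2 libraries, none was called in edgeR's quasi-likelihood test with Benjamini-Hochberg adjustment, and the difference between the pairs was not tested, since each pair has 1 library a side. Rsc1a1, which encodes a regulator of solute carriers, had a log2 ratio of FPKM + 1 of 2.08 in the KO pair and -1.52 in the WT pair, a difference of 3.6, on 3.24 FPKM in KO PM against 0 in KO BMDM and 0.21 FPKM in WT PM against 2.47 FPKM in WT BMDM. H3c15, a histone H3 gene with near-identical copies, had ratios of 1.3 and -1.17 in the KO and WT pairs, a difference of 2.47; it stood at 14.1 FPKM in KO PM against 5.14 FPKM in KO BMDM, and at 1.36 FPKM in WT PM against 4.31 FPKM in WT BMDM. Gm44805, a predicted gene, had ratios of -1.31 and 1.33 in the KO and WT pairs, a difference of -2.64, with 0 in KO PM against 1.48 FPKM in KO BMDM and 1.51 FPKM in WT PM against 0 in WT BMDM.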

How the results depend on the processing

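The counts of genes higher and lower in PM moved most under the test against a 2-fold change, and also with the tool and the scale. DESeq2 called 2211 higher and 2193 lower, limma 2051 higher on log2(FPKM + 1) and 2026 higher on log2(FPKM + 0.1), and edgeR against a 2-fold change 1032 higher and 1200 lower, against 3556 and 3546. Leaving out each library in turn gave 2992 to 3280 higher and 3098 to 3292 lower. The counts of genes called and also 2-fold on FPKM stayed within 1.5 times of 573 and 1110 in every refit that was run. This was largely fixed in advance. Most refits kept the same FPKM ratios, and nearly all genes 2-fold in both genotypes were called to begin with. With a library left out, only the ratio of the remaining genotype pair was used, so those counts are not of both genotypes. Of 947 tested genes that are named or on a list, 706 were called, and 334 of these kept their direction and call in all 16 refits, of which 1 was added after seeing the data; over all refits 1040 values were no longer called, 350 of them against a 2-fold change, and 290 were newly called. The direction turned in 4, whose log2 changes with a library left out ranged as follows: H3c15 -1.58 (without KO PM) to 1.749 (without WT PM), Scd2 -0.145 (without WT PM) to 0.76 (without KO PM), Gdf3 -0.809 (without KO BMDM) to 0.827 (without WT BMDM), and Csf2ra -0.274 (without WT PM) to 0.281 (without KO PM). The cause was not tested. No paired analysis was possible because each group held 1 replicate, so replicate numbers could form no block; the fit instead matched libraries by genotype, and without that term 3678 genes were higher and 3616 lower. PM libraries held about 29.0 counts for a gene near 1 FPKM, so genes below that level are weakly measured.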
